A study of Rattus norvegicus with 24 samples.

Results

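The genes described here carry an odor signal through mature olfactory sensory neurons, or bring odorant receptors to the surface of those cells. The list held 10 genes, Omp, Gnal, Adcy3, Cnga2, Cnga4, Ano2, Stoml3, Rtp1, Rtp2 and Reep1, chosen by name for the transduction cascade and receptor trafficking. Earlier results of these data were known when the list was chosen. Of these, 9 had a probe set with a gene name, 1 each, among the 29214 probe sets and 14506 named genes of the array. Ano2 had no named probe set and was not analysed here.

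The arrays came from male Fischer rats, about 8 weeks old at the start according to the labels, in a study of inhaled formaldehyde, a reactive and irritating gas. Exposed rats breathed 2 ppm formaldehyde vapour, made from isotope-labelled paraformaldehyde, in nose-only exposure, 6 hours each day, and were taken at 7 or 28 days. Control rats of each day were held in the same kind of tube with room air. Nasal tissue from the maxilloturbinate, a turbinate lined mainly by respiratory epithelium, and white blood cells from whole blood gave 8 groups of 3 arrays, 24 arrays in all: nose exposed and control at 7 days, nose exposed and control at 28 days, and the same 4 groups for blood. Nothing in the labels states that replicates of a group were different animals. The p-values therefore cover the spread among these samples alone, which may be technical.

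In the cilia of a mature olfactory neuron an odorant receptor activates the olfactory G protein, whose alpha subunit is the product of Gnal. That subunit turns on the adenylyl cyclase encoded by Adcy3, and the cyclic AMP it makes opens a cation channel built from the products of Cnga2, Cnga4 and Cngb1. Calcium entering through the channel opens the chloride channel encoded by Ano2, which amplifies the current. Omp encodes a small cytoplasmic protein that marks mature olfactory neurons. Stoml3 encodes a stomatin-like membrane protein of olfactory cilia, and Rtp1, Rtp2 and Reep1 encode accessory proteins that help odorant receptors reach the cell surface, a role described in mouse genes and cultured cells.

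Promoter sequence was looked up because the measured genes moved together across the arrays, as the values below show. Ano2 was looked up too, although its level was not measured. RefSeq promoters on the GRCr8 build, from 250 bases before to 50 bases after the gene start, were matched for 8 of the 10 genes. Omp and Adcy3 had no entry and were not searched. The 8 genes had 10 entries because Ano2 had 3. The motif searched was CCCNNGGG, the core of the site bound by Ebf factors, which act in olfactory neurons. It is its own reverse complement, so 1 search covers both strands. Among the 10 entries it was found in 1 entry each of 4 genes, Ano2, Cnga2, Cnga4 and Reep1. The other Ano2 entries lacked it. Over all 33469 promoter entries the share was 12.43%. The homeodomain core TAATTA, also its own reverse complement and unable to overlap the first motif, was found in the promoters of 0 of the 8 genes and in 5.36% of all promoters. The promoters of both cyclic nucleotide-gated channel subunits and of Reep1 are printed with the Ebf core in capitals, 5′ to 3′ on the plus strand of GRCr8.
Cnga2 (chrX:154741516-154741815): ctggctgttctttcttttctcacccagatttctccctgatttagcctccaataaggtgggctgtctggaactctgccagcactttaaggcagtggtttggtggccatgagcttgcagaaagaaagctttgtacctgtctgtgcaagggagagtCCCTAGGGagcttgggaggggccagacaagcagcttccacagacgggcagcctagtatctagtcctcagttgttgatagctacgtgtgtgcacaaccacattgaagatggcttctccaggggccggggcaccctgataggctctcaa
Cnga4 (chr1:169163956-169164255): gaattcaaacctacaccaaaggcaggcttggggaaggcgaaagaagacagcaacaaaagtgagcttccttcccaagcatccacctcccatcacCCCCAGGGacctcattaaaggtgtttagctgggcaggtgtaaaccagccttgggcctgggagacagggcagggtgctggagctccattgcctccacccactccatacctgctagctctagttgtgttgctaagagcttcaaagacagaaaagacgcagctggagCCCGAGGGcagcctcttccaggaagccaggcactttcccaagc
Reep1 (chr4:105304132-105304431): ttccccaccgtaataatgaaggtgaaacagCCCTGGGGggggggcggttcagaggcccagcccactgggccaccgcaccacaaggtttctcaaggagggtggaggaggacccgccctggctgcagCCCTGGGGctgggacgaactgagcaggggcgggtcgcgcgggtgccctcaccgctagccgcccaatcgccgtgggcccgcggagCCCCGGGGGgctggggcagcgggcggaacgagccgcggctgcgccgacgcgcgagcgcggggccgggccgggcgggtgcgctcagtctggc
The Cnga2 match began 97 bases before the gene start, while Cnga4 had 1 match 157 bases before and another 7 bases after it. Reep1 had 4 matches, of which those at 41 and 40 bases before the start overlap, in a window of 74.7% G and C, against 53.0% for Cnga2 and 55.3% for Cnga4. Such a match is a description of letters and not a measured binding site.

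Levels are given as the log2 of the deposited normalised intensity, for replicates 1, 2 and 3 in that order. Arrays of the 2 days lay on different scales. The median over all probe sets was 8.26 to 8.28 in nose at 7 days and 7.35 to 7.42 in nose at 28 days, so levels are compared within a day. Differences are exposed minus control with their standard error from limma, fitted to the 12 nose arrays together, and a gene was called at a Benjamini-Hochberg adjusted p under 0.05 over 21910 probe sets. In both days control replicate 1 stood apart. It was the lowest nose array of its day for all 9 measured genes, while exposed replicate 1 at 7 days and exposed replicate 2 at 28 days were the highest for all 9. Summed over the 9 genes, the intensity at 7 days was 45193.2, 38439.7 and 37728.5 in exposed noses, against 6995.7, 19912.3 and 17071.8 in control noses. The sums at 28 days were 16274.8, 19882.3 and 15840.9 in exposed noses, against 1934.4, 14830.9 and 11966.5 in control noses. In tissue of mixed cells, fewer neurons and less RNA per neuron cannot be told apart.

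**Figure D1:**
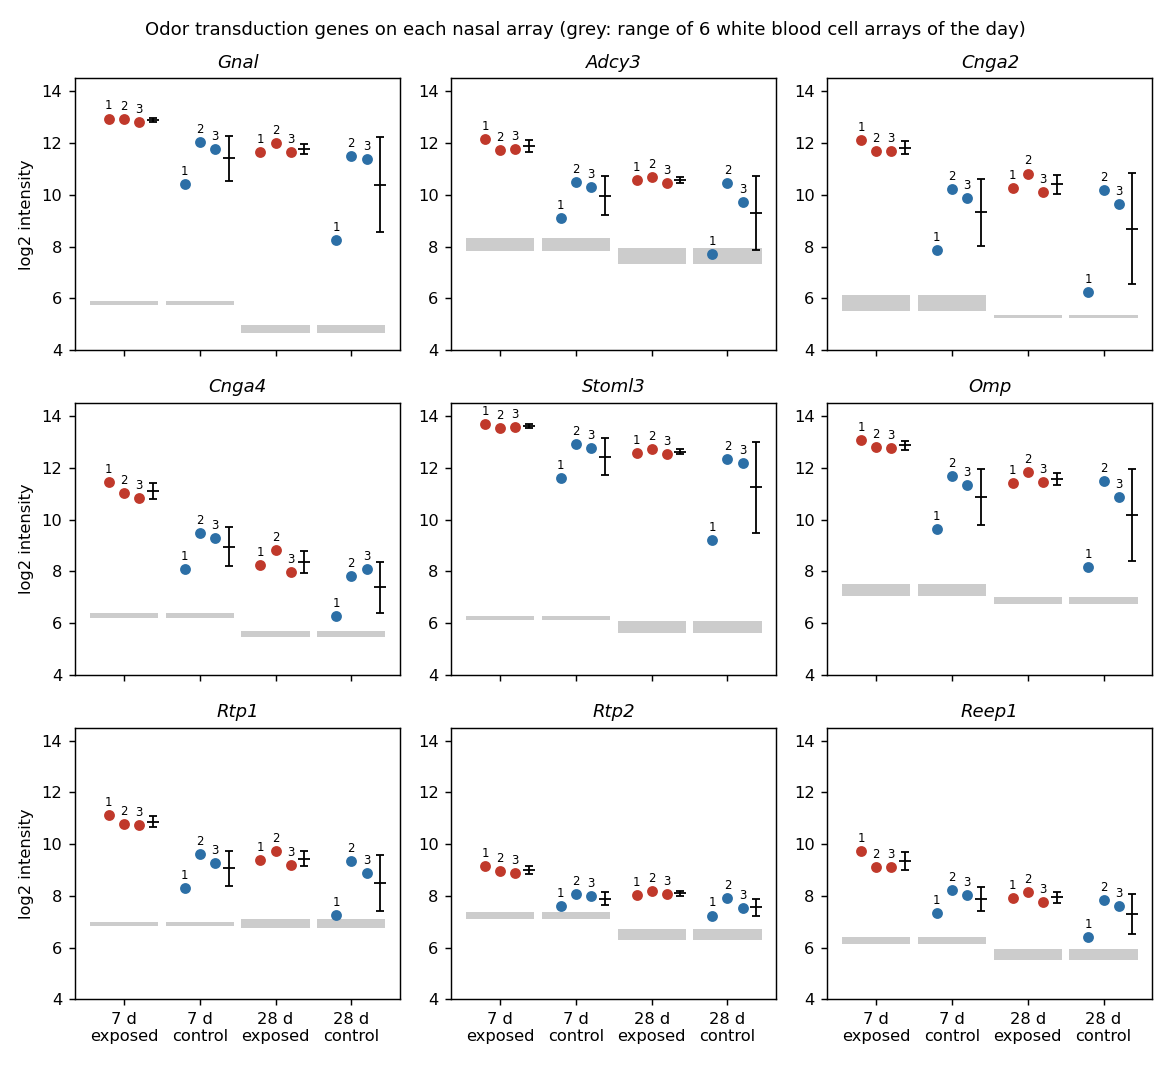
Log2 intensity of the 9 measured genes on each nose array, with 1 panel per gene, exposed left of control at 7 days and then at 28 days. Points carry the replicate number, bars beside them give the mean ± SD of 3 arrays, and grey bands give the range of the 6 white blood cell arrays of that day. Control replicate 1 is the lowest point of its day in every panel.

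After 7 days of exposure the whole set was higher in exposed noses, and all 3 exposed arrays lay above all 3 control arrays for 9 of the 9 measured genes. Such a separation in this direction was seen in 20.8% of all probe sets tested. By the test, 5 of the 9 genes rose (Cnga4, Adcy3, Rtp1, Reep1 and Rtp2), 0 fell and 4 did not pass, where 8.43% of all probe sets rose and 7.84% fell. At an unadjusted p under 0.05 the count was 7 of 9, and it was 6665 over all 21910 probe sets. With the replicate number as a block, 2 of the 9 were called, Cnga4 (adjusted p = 0.0456) and Rtp2 (adjusted p = 0.0196), and 1795 of all probe sets. The median difference of the 9 genes was 1.81, against −0.05 for all probe sets tested.

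Gnal and Adcy3 act at the start of the cascade. Gnal had 12.95, 12.92 and 12.80 in exposed noses, against 10.41, 12.05 and 11.77 in control noses at 7 days. Its difference of 1.48 ± 0.72, or 2.79-fold, did not pass (adjusted p = 0.195). Adcy3, which makes the cyclic AMP, had 12.14, 11.74 and 11.78 in exposed noses, against 9.10, 10.50 and 10.32 in control noses. It rose by 1.91 ± 0.58, or 3.76-fold (limma, adjusted p = 0.0452). For both genes the groups did not overlap, and the exposed arrays lay closer together than the control arrays, with SDs of 0.08 and 0.88 for Gnal and of 0.22 and 0.76 for Adcy3. Omp, the marker of mature neurons, had 13.07, 12.80 and 12.75 in exposed noses, against 9.62, 11.66 and 11.33 in control noses. That 4.01-fold difference of 2.00 ± 0.74 had an adjusted p of 0.0907.

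The channel subunits had the largest differences among the 9 genes. Cnga2, the subunit that can form the channel alone, had 12.11, 11.68 and 11.69 in exposed noses, against 7.85, 10.22 and 9.89 in control noses. The difference of 2.51 ± 0.89, or 5.69-fold, did not pass (adjusted p = 0.0793), with a control SD of 1.28. Cnga4, a modulatory subunit, had 11.45, 11.01 and 10.83 in exposed noses, against 8.09, 9.49 and 9.27 in control noses. It rose by 2.15 ± 0.48, or 4.42-fold (limma, adjusted p = 0.0159). Both subunits were separated between the groups, with control replicate 1 lowest. Stoml3, the ciliary membrane protein, had 13.69, 13.55 and 13.59 in exposed noses, against 11.61, 12.91 and 12.78 in control noses, and the difference of 1.18 ± 0.67 did not pass (adjusted p = 0.275).

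All 3 receptor trafficking genes rose at 7 days. Rtp1 had 11.14, 10.76 and 10.73 in exposed noses, against 8.31, 9.63 and 9.27 in control noses, a rise of 1.81 ± 0.47 or 3.50-fold (limma, adjusted p = 0.0271). Rtp2 had 9.16, 8.96 and 8.88 in exposed noses, against 7.62, 8.08 and 7.98 in control noses. It had the smallest change of the 9, 1.10 ± 0.17 or 2.15-fold, and the smallest adjusted p (0.00374), with SDs of 0.14 in exposed and 0.24 in control noses. Reep1, whose product also shapes the endoplasmic reticulum in other neurons, had 9.73, 9.13 and 9.14 in exposed noses, against 7.35, 8.22 and 8.05 in control noses. It rose by 1.46 ± 0.35, or 2.76-fold (limma, adjusted p = 0.0195).

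The 7 day count turned on single arrays. Without control replicate 1 of that day the 9 differences ran from 0.77 to 1.78 with a median of 1.38, and 1 gene, Rtp2, was called, with 846 of all probe sets. The count was also 1 without exposed replicate 1 (802 of all probe sets), and 3 without exposed replicate 2, exposed replicate 3 or control replicate 3 (2649, 2658 and 1608 of all probe sets). Without control replicate 1 of day 28, which enters only the shared estimate of the spread, 9 of 9 were called with adjusted p from 0.0011 to 0.0123, and 5042 of all 21910 probe sets were called in that fit. Rtp2 was the 1 gene called under each of the 20 alternatives, with adjusted p from 3.23e-05 to 0.0201.

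**Figure D2:**
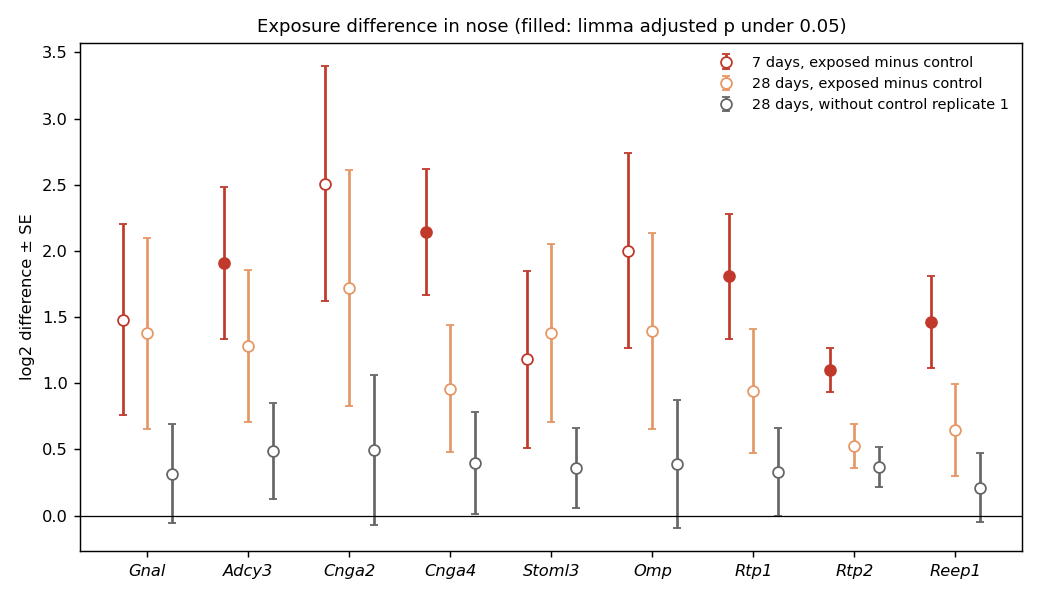
Log2 difference, exposed minus control, with its standard error for the 9 genes at 7 days, at 28 days and at 28 days without control replicate 1, with filled points for an adjusted p under 0.05. The 5 filled points are all at 7 days, and the 28 day differences without that array run from 0.21 to 0.49.

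After 28 days the 9 genes were again higher on average in exposed noses, and 0 of 9 passed the test (limma), with 2 at an unadjusted p under 0.05. Of all probe sets, 0% were called higher and 0.00456%, which is 1 probe set, in either direction, while 3385 had an unadjusted p under 0.05. The median difference of the genes was 1.28, against 0.01 for all probe sets. For Gnal, Stoml3 and Rtp2 the exposed arrays lay wholly above the control arrays, 3 of 9 genes, against 7.48% of all probe sets.

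Gnal had 11.64, 11.99 and 11.67 in exposed noses, against 8.27, 11.52 and 11.38 in control noses at 28 days. Stoml3 had 12.57, 12.73 and 12.55 in exposed noses, against 9.20, 12.33 and 12.18 in control noses. For both genes control replicates 2 and 3 lay less than 1 log2 unit below the exposed arrays, and control replicate 1 lay far lower. Rtp2 had 8.03, 8.19 and 8.06 in exposed noses, against 7.24, 7.91 and 7.54 in control noses, a difference of 0.53 ± 0.17 (adjusted p = 0.184). The differences of the other 2 were 1.38 ± 0.72 for Gnal (adjusted p = 0.382) and 1.38 ± 0.67 for Stoml3 (adjusted p = 0.351).

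For the remaining 6 genes the 28 day groups overlapped. Cnga2 had 10.28, 10.82 and 10.12 in exposed noses, against 6.23, 10.20 and 9.63 in control noses, so control replicate 2 lay above exposed replicate 3. Its difference of 1.72 ± 0.89 had an adjusted p of 0.378. Cnga4 had 8.24, 8.82 and 7.98 in exposed noses, against 6.26, 7.82 and 8.08 in control noses, with control replicate 3 above exposed replicate 3. Adcy3 had 10.58, 10.70 and 10.45 in exposed noses, against 7.70, 10.45 and 9.72 in control noses, where exposed replicate 3 and control replicate 2 were all but equal. Its difference was 1.28 ± 0.58 (unadjusted p = 0.0479, adjusted p = 0.319).

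Omp had 11.42, 11.85 and 11.44 in exposed noses, against 8.15, 11.47 and 10.89 in control noses. Rtp1 had 9.39, 9.75 and 9.19 in exposed noses, against 7.28, 9.33 and 8.90 in control noses. In Omp and Rtp1 alike control replicate 2 was above an exposed array, and control replicate 1 was more than 1 log2 unit below every other nose array of that day. Reep1 had 7.92, 8.14 and 7.75 in exposed noses, against 6.43, 7.86 and 7.60 in control noses. The differences were 1.40 ± 0.74 for Omp (adjusted p = 0.388), 0.94 ± 0.47 for Rtp1 (adjusted p = 0.363), 0.65 ± 0.35 for Reep1 (adjusted p = 0.395) and 0.96 ± 0.48 for Cnga4 (adjusted p = 0.361). With control replicate 1 left out, the 9 differences at 28 days ran from 0.21 in Reep1 to 0.49 in Cnga2 with a median of 0.37, and 0 of 9 were called with adjusted p from 0.171 to 0.662, while 1081 of all probe sets were.

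The difference between the 2 exposure effects, 28 days minus 7 days, was tested as an interaction. It was called for 0 of 9 genes (limma), against 0.1% of all probe sets, with 1 gene at an unadjusted p under 0.05, as were 2977 probe sets of all. That gene was Rtp2, at −0.57 ± 0.24 (adjusted p = 0.343). Its median over the 9 genes was −0.63, against 0.05 for all probe sets. Cnga4 had the lowest value, −1.19 ± 0.67 (adjusted p = 0.431), and Stoml3 the highest, 0.20 ± 0.95. Without control replicate 1 of day 28 the values ran from −2.01 to −0.74, and 2 of 9 genes were called, Reep1 at −1.25 (adjusted p = 0.0453) and Rtp2 at −0.74 (adjusted p = 0.0459). Of all 21910 probe sets 2648 were called in that fit.

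How far the genes moved as a unit was described by subtracting, on each array, the mean of the other genes of the set. Within a day the SD over arrays of Adcy3 was 1.15 before and 0.16 after this step, and that of Rtp1 was 0.99 before and 0.18 after. Both genes therefore tracked the set closely, while the median SD within a day over all probe sets kept was 0.17. Cnga2 had the widest swing, with an SD of 1.64 before and 0.65 after, and it changed by 1.64 log2 units for each unit of the other genes' mean. Rtp2 had the narrowest, with an SD of 0.51, a slope of 0.41 and a larger SD after subtraction, 0.71. The slopes of the remaining 7 genes ran between those 2 and describe these 12 arrays only.

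**Figure D3:**
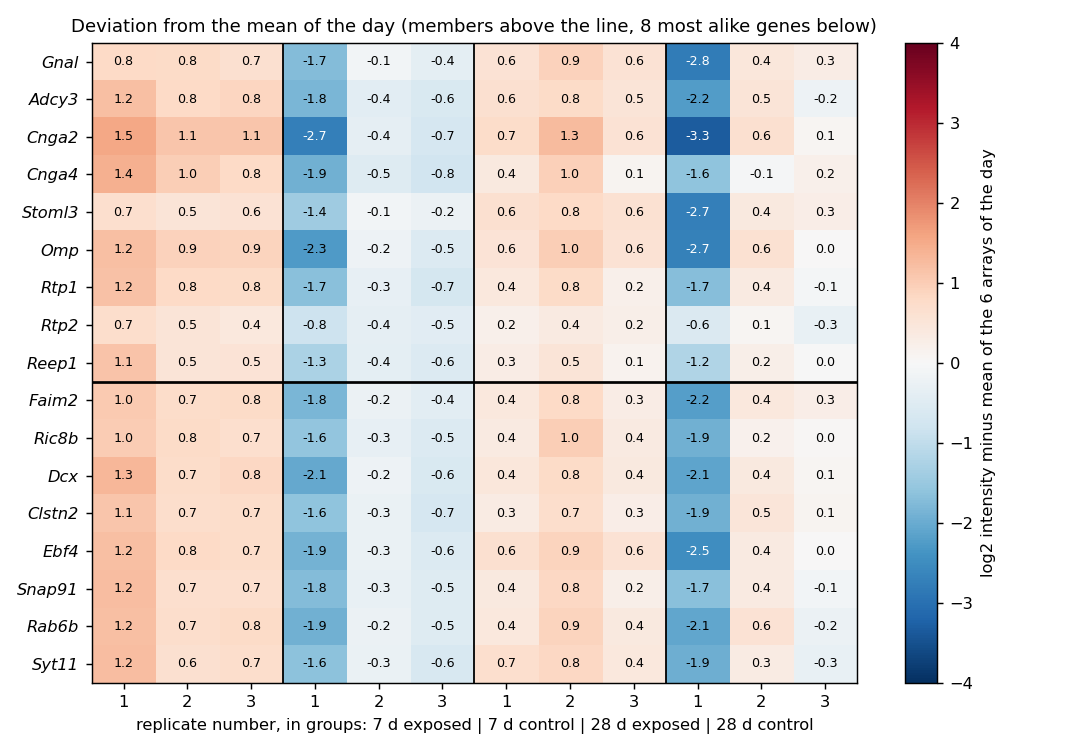
Log2 deviation from the mean of the 6 nose arrays of a day, in colour and figures, for the 9 genes above the line and the 8 named genes of most similar profile below it, with exposed arrays left of control arrays at each day. Control replicate 1 of each day is the lowest array in all 9 upper rows.

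White blood cells, which are not olfactory neurons, show what these probe sets read in another tissue. The ranges over the 12 blood arrays were 4.66 to 5.90 for Gnal, 5.62 to 6.29 for Stoml3, 5.24 to 6.14 for Cnga2 and 6.74 to 7.52 for Omp. Gnal, Cnga2, Cnga4, Stoml3 and Reep1 averaged in blood under the filter level of the nose and blood comparison, 6.375. They passed that filter only through their nose level, and no count or size of a difference from blood is drawn from them. The other measured genes were Adcy3, Omp, Rtp1 and Rtp2. In unexposed rats at 7 days each of these was higher in nose than in blood, where 59% of all probe sets were. The differences ran from 0.61 ± 0.15 for Rtp2 to 3.48 ± 0.55 for Omp, with adjusted p from 8.09e-06 to 0.00163 (limma). At 28 days each of them was again higher, by 1.07 for Rtp2 to 3.36 for Omp, where 46.7% of all probe sets were higher. The nose arrays lay above the blood arrays without overlap for each of these genes at 7 days (63.5% of all probe sets). At 28 days they did so for Omp, Rtp1 and Rtp2 (43.2% of all probe sets). The exception was Adcy3, whose nose control replicate 1, at 7.70, lay within the blood control range of 7.53 to 7.93. On that nose array Rtp1 was at 7.28, just above its highest blood value of 7.11.

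Exposure was also compared in white blood cells. Cnga2, Cnga4 and Gnal lay under the filter for blood and 6 of 9 genes were tested. At 7 days 0 of 6 were called, with differences of −0.28 to 0.04 and 0 at an unadjusted p under 0.05, against 0.475% of all probe sets called. At 28 days 0 of 6 were called, with differences of −0.23 to 0.06 and 0 at an unadjusted p under 0.05, against 5.27% of all probe sets.

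Other genes of the cascade were taken from a list of 15, of which 14 had a named probe set and 13 passed the filter. At 7 days 8 rose, 0 fell and 5 did not pass, with a median difference of 1.17. The shares over all probe sets were 8.43% higher and 7.84% lower. Cngb1, the channel's beta subunit, rose by 1.17 ± 0.23 (adjusted p = 0.01), and Ric8b, which helps the olfactory G protein alpha subunit to accumulate, rose by 1.62 ± 0.50 (adjusted p = 0.0481). Slc24a4, the exchanger that clears calcium from the cilia, rose by 1.88 ± 0.35 (adjusted p = 0.00822).

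Phosphodiesterases, which break down cyclic AMP, and calmodulins were also on the list. Pde1c, the cyclic AMP phosphodiesterase of olfactory cilia, rose by 1.27 ± 0.29 (adjusted p = 0.0176), and Pde4a, a phosphodiesterase of the cell body and dendrite, by 1.26 ± 0.22 (adjusted p = 0.00633). The calmodulin genes Calm2 and Calm3, whose product carries the calcium feedback, rose by 0.46 ± 0.10 and 0.65 ± 0.19 (adjusted p = 0.0171 and 0.0396). Gnb1, a G protein beta subunit of many cell types, rose by 0.74 ± 0.20 (adjusted p = 0.0331). Gng13, a gamma subunit of chemosensory cells, had 2.03 ± 0.72 and did not pass (adjusted p = 0.0792), and Slc12a2, the chloride importer, had −0.34 ± 0.23 (adjusted p = 0.357). Stom, a stomatin related to Stoml3 and also listed among the relatives, had 1.32 ± 0.53 (adjusted p = 0.12). Arrb2 and Grk3, an arrestin and a receptor kinase that quiet the receptor, had 0.21 (adjusted p = 0.152) and −0.30 (adjusted p = 0.274) and did not pass. They and Gng13 were named after their values were seen. At 28 days 0 of the 13 were called, against 1 of all probe sets, and their median was 0.50.

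Relatives of the 10 genes were listed to show the families outside the olfactory cascade. Of 34 listed, 21 passed the filter, and at 7 days 3 rose, 4 fell and 14 did not pass, with a median of −0.33. Over all probe sets 8.43% rose and 7.84% fell. Singled out after their values were seen, the 3 that rose were Gnao1 by 1.44 ± 0.41 (adjusted p = 0.0369), Reep2 by 0.40 and Adcy2 by 0.38. The 4 that fell were Reep5, Adcy5, Reep4 and Adcy4, by 0.80, 0.57, 0.52 and 0.48. Among the relatives of highest level, Gnas, the alpha subunit that most other tissues use, had −0.18 ± 0.07 in the 7 day comparison (adjusted p = 0.121), while Gnal had 1.48. Ano1, a chloride channel of secretory epithelia related to Ano2, had −0.60 ± 0.21 (adjusted p = 0.0769).

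The gene lists of cell types moved with the set in part. Their 7 day counts stand beside 8.43% of all probe sets higher and 7.84% lower. Of 20 other mature neuron genes past the filter, 9 rose and 0 fell at 7 days, with a median of 1.67, and the summed intensity was 64296.8 to 80335.9 in exposed noses and 20574.1 to 37809.5 in control noses. For immature neurons, 13 genes passed the filter, 4 rose and 0 fell, and their median was 1.13. Of 10 genes of sustentacular cells and Bowman's glands, 0 rose and 1 fell, and the median was 0.75. At 28 days 0 genes were called in any of these lists, against 1 of all probe sets, with medians of 0.80, 0.49 and 0.43 in the same order.

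Named by their high level, Faim2 had 1.68 ± 0.61 (adjusted p = 0.0866) and S100a5, a calcium-binding protein of active olfactory neurons, had 1.47 ± 0.80 (adjusted p = 0.251) among mature neuron genes at 7 days. Bsg, which many cells express, had −0.05. Obp2b, Obp1f and Cyp2a3, secreted odorant-binding proteins and a nasal cytochrome, had 0.05, −0.02 and 0.08. They had the highest level of the sustentacular and gland list, in which 8 of 10 differences were above 0 at 7 days. The mean log2 of that list was lowest on control replicate 1 among the nose arrays of each day, 11.75 and 10.21. Of the immature neuron genes, Stmn2 had 1.51 ± 0.64 (adjusted p = 0.138), Dpysl3 had 0.74 ± 0.24 (adjusted p = 0.0606) and Hdac2, which many cells express, had 0.03.

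Markers of other tissue compartments changed beside the set at 7 days, when 8.43% of all probe sets were called higher and 7.84% lower. All 7 endothelial genes past the filter fell, with a median of −0.71, among them Emcn by 0.86 ± 0.21, Tie1 by 0.72 ± 0.16 and Cdh5 by 0.61 ± 0.10, and their summed intensity was 2716.6 to 3850.3 in exposed noses and 5257.8 to 6488.0 in control noses. Of 10 ciliated cell genes past the filter, 4 rose and 0 fell. Only 6 of these 10 differences were above 0, with a median of 0.33. Sums over the full list of 11 genes were 9611.7 to 10660.1 in exposed noses and 6886.3 to 8057.3 in control noses. By their high level, Spef2, an axonemal gene, rose by 1.29 ± 0.30 (adjusted p = 0.0179) and Ccdc40 by 0.68 ± 0.13 (adjusted p = 0.00911). Foxj1, the master regulator of motile cilia, had −0.02. The 5 white blood cell genes summed to 2695.8 to 3180.5 in exposed noses and 4291.1 to 4453.5 in control noses. At 28 days the endothelial sums were 1862.5 to 2098.7 in exposed noses and 2288.2 to 2948.5 in control noses, with a median of −0.24 and 0 called. At 7 days, of 5 genes each, the basal and squamous list had 0 higher and 2 lower, the microvillous and tuft cell list 0 higher and 2 lower, and the Schwann cell and glia list 1 higher and 0 lower. By their high level, Krt14, Tp63 and Serpinb5 had −0.33, −0.38 and −1.17 in the first list, with Tp63 and Serpinb5 past the test. Ascl3, Pou2f3 and Plcb2 had −0.58, −0.02 and −0.65 in the second, with Ascl3 and Plcb2 past it. Pmp22, Sox10 and Fabp7 had −0.27, −0.15 and 1.06 in the third, with Fabp7 past it. Of 3 genes of olfactory neurons that use a receptor guanylyl cyclase in place of this cascade, Gucy2d fell by 0.22 and Car2 and Pde2a, at 0.04 and −0.51, did not pass. The full list of 4 had a mean log2 of 9.20 to 9.31 in 7 day control blood, against 8.27 to 8.37 in control noses. Its values are therefore not those of such neurons alone. The part of these compartments in the members' differences was not tested.

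**Figure D4:**
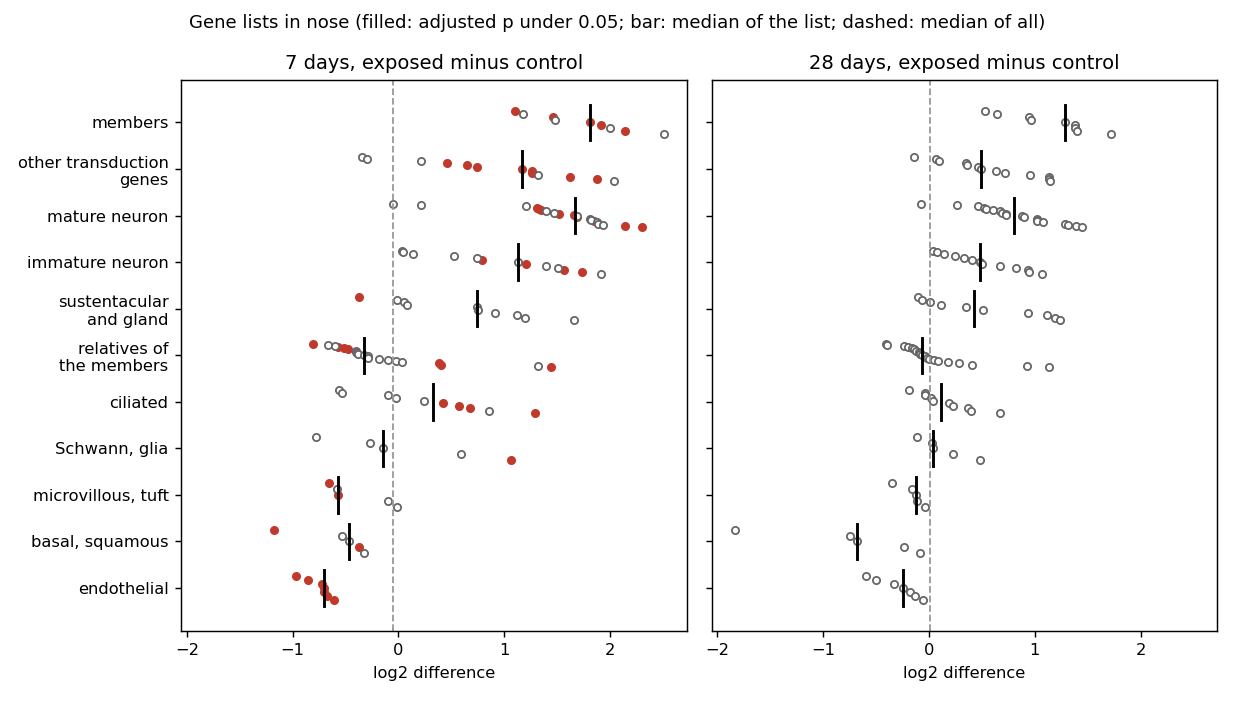
Log2 difference, exposed minus control, of each gene in 11 lists at 7 days and at 28 days, with filled points for an adjusted p under 0.05, a bar for the list's median and a dashed line for the median of all probe sets. At 7 days the 7 endothelial genes all lie below 0, and at 28 days no point is filled.

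Genes with the most similar array profile were named by the mean absolute difference from the set's mean profile, each centred on its day, over the 12 nose arrays and 12202 named genes. The 8 closest were Faim2 (0.0826), Ric8b (0.0843), Dcx (0.086), Clstn2 (0.0924), Ebf4 (0.0958), Snap91 (0.1012), Rab6b (0.1023) and Syt11 (0.1041). The median over the named genes was 0.8127, and the 9 members themselves lay at 0.0977 to 0.4178, Rtp1 the closest and Rtp2 the farthest. Dcx encodes doublecortin, a microtubule protein of young neurons, and Ebf4 encodes a factor of the family whose motif is printed above. Some of these genes also stood on the lists above, Faim2 and Ric8b among them.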

How the data were processed

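Male Fischer rat nasal tissue and white blood cells were measured on Affymetrix arrays, 3 arrays for each of 8 groups taken from the sample titles. The authors deposited 1 normalised intensity per probe set and array on a linear scale. Per the submitters' processing notes Partek was used. The version, the background correction and the normalization are not stated in what was read here. Values were converted to log2 with no further normalization. The platform annotation supplied symbols. In it 15310 probe sets had 1 symbol, 323 several and 13581 none, and 15279 matched RefSeq.

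Probe sets at or above percentile 25 of the tissue mean were kept. Each tissue's 12 arrays were fitted with limma 3.58.1 in R 4.3.3, using 4 group means, and all 24 arrays were used for nose against blood. Tests were two-sided with Benjamini-Hochberg adjustment. Among same-numbered exposed and control nose arrays at 28 days r was 0.154 to 0.247, and among different-numbered ones −0.453 to 0.205. These ranges overlap and do not settle whether the numbers pair arrays, which the labels do not state. At 7 days r was −0.26 to −0.078 for the same numbers. The main tests took no pairing on either day. The replicate block was run as an alternative.

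The 10 members, the gene lists and the tests were chosen with earlier results of these data known. Named genes were all members, the 3 of highest nose level in each list, the other cascade genes called, and the 8 of closest profile, and a few others are marked as named after their values were seen. On simulated data of the 7 day nose comparison, 78% of 2-fold and 49% of 1.5-fold changes were recovered, of 200 changed among 21910 tested, with 6 false calls. The shares were 81% and 52% at 28 days and 54% and 14% for the interaction. The changed probe sets were drawn from all those past the filter, with noise independent between probe sets. The shares therefore do not describe the members, which shared a low control array. Alternatives were the filter, scaling, prior, array weights, block, arrays fitted and each array left out. Probe set averages were not run since each member has 1 probe set. Precision is limited by 3 arrays a group. Figures used matplotlib 3.10.9.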

Additional observations from a re-analysis of the deposited data

How the results depend on the processing

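At 7 days the 5 members called became 9 with array weights, whose estimation stopped before it converged, 9 with only the groups compared and 2 with the replicate block, and 1 to 9 with each array left out. Adcy3 lost its call in 11 of 20 alternatives, Rtp1 in 6, Reep1 in 3, Cnga4 in 2 and Rtp2 in 0. At 28 days 0 members were called under all 20 alternatives. The interaction gave 0 members, and 0 to 2 with each array left out. Over all probe sets, the 3564 calls at 7 days became 2367 with the filter at the median, 8640 with array weights, 1795 with the replicate block and 6304 with only the groups compared, and 802 to 5556 with each array left out. The 1 call at 28 days became 0 with the filter at the median, array weights, the replicate block or only the groups compared, 42 with quantile normalization and 2 with centred arrays, and 0 to 1081 with each array left out. The 22 interaction calls became 145 with no filter, 1 with the filter at the median, 1 with quantile normalization, 65 with centred arrays, 14 with the trend and robust prior, 0 with array weights and 82 with the replicate block, and 1 to 2648 with each array left out. Interaction values that changed sign were Cnga2 (0.057), Gnal (0.505) and Omp (0.067) with array weights, and Stoml3 (−0.076) with quantile normalization. With each array left out they ran from −1.16 to 0.46 in Gnal, −1.61 to 0.044 in Omp and −0.82 to 0.75 in Stoml3. The cause was not tested, beyond the fewer arrays or probe sets that an alternative keeps.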
